A study of Mus musculus with 16 samples.

Results

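The genes described here are the heat shock proteins, the subunits of the cytosolic chaperonin, the J proteins that serve HSP70 chaperones, the protein disulfide isomerases and a small set of endoplasmic reticulum (ER) folding and stress genes. They were chosen by gene symbol (names beginning Hsp, Dnaja, Dnajb, Dnajc, Cct, Tcp1 or Pdia, together with Calr, Canx, Xbp1, Herpud1, Creld2 and Hyou1). Earlier results of these data were known when this choice was made. This gave 81 of the 18138 genes on the array. By the site that their products serve, assigned from textbook knowledge, 40 are cytosolic, 10 mitochondrial, 21 belong to the ER and 10 to other sites. The transcription factor gene Xbp1 was counted with the ER genes.

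Expression was measured in D10 cells, a mouse Th2 cell line, with and without Akti1/2, an allosteric inhibitor of the kinases Akt1 and Akt2, during stimulation through CD3 and CD28. Control cells were set beside cells that had 10 µM Akti1/2 for 1 h beforehand, making 8 groups with both arms at 0, 2, 6 and 12 h of stimulation. Each group held 2 arrays, here called replicate 1 and replicate 2, and all came from the same line. The sources used here do not say whether the replicates were separate cultures, so the p-values measure only the spread between these arrays, which may be technical, and they do not agree on whether the control cells received solvent.

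The 16 arrays lay on 2 Illumina chips, and each chip carried 1 array of each group. The median intensity per array was 119.4 to 148.6, and 6288 to 6907 genes per array (median 6512) were above background, which means that under 1 in 100 negative control probes (a detection p of 0.01) were as bright. All levels below are log2 intensities after background correction and quantile normalization, on which a difference of 1 is a doubling. Replicate arrays of a group correlated at 0.9855 to 0.9940 across genes.

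The Th2 label held in the marker genes. Of 11 markers of Th2 cells, 10 were above background on all 16 arrays (among them Cd3e, Gata3, Il4 and Il5), and Cd4 was above background on 13. The CD8 genes Cd8a and Cd8b1 and the Th1 genes Tbx21 and Ifng were above background on none. Markers of other cell types did move in part. The summed level of the erythroid markers, nearly all from Hba-a1 since Hbb-b1 was above background on no array, was 10.60 and 10.63 in control cells at 0 h, 9.19 and 9.27 in control cells at 12 h, and 7.15 and 7.53 in Akti1/2-treated cells at 12 h. Of 7 myeloid markers, 6 were above background on no array, and the summed level, led by Cd68, was 7.66 and 7.67 without and 8.23 and 8.15 with Akti1/2 at 12 h. The part of these shifts in the results below was not tested.

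Chaperones bind unfolded or partly folded proteins and let them fold. In the cytosol, HSP70 proteins work in cycles with J proteins, which stimulate their ATPase, and with nucleotide exchange factors such as HSP110, and pass some clients to HSP90, while the ring-shaped chaperonin TRiC folds actin, tubulin and other proteins inside its cavity. Heat shock factor 1 induces many of these genes through heat shock elements. In the ER, BiP and GRP94 fold secretory and membrane proteins together with lectins and disulfide isomerases, and a load of unfolded protein sets off the unfolded protein response (UPR), in which XBP1 and ATF6 act on ER stress response elements. Mitochondria have an HSP70 of their own (mortalin) and the chaperonin HSP60 with its lid HSP10.

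Since the ER genes are known for such elements, the promoters of the members were searched for them. RefSeq promoter windows (build GRCm38.p6, from 250 bases before to 50 bases after each start site) were at hand for 62 members and for 27025 genes in all. The ER stress response element, which is CCAAT, then any 9 bases, then CCACG, read like the others on both strands, was found in 7 members against 0.137% of all genes, and all 7 were ER genes. Each match is shown in capitals with 12 bases on either side, 5′ to 3′, on the strand on which it reads.
Hspa5 (BiP), chr2:34772013-34772055, plus strand: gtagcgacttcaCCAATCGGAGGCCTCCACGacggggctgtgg
Hsp90b1 (GRP94), chr10:86705626-86705668, minus strand: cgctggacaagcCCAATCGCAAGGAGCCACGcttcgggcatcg
Hsp90b1 (GRP94), chr10:86705521-86705563, plus strand: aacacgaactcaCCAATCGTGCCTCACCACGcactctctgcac
Calr (calreticulin), chr8:84847063-84847105, plus strand: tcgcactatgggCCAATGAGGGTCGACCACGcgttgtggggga
Canx (calnexin), chr11:50325788-50325830, minus strand: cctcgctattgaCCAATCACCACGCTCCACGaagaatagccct
Pdia6, chr12:17266479-17266521, plus strand: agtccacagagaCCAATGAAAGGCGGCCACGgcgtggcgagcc
Dnajc3, chr14:118937815-118937857, plus strand: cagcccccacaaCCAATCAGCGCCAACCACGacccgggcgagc
Creld2, chr15:88819508-88819550, minus strand: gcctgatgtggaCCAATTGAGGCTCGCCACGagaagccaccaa

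The related element ERSE-II, which is ATTGG, then any 1 base, then CCACG, was found in 1 member, Herpud1, against 0.0444% of all genes. Herpud1 also held the element TGATGNAA, which ATF4 is known to bind and which Hspa14 and 4.51% of all genes held too. The heat shock element, taken as GAA, TTC and GAA with any 2 bases between neighbours, was found in 3 members (Hspd1, Hspe1 and Dnajb6) against 0.662% of all genes. Hspd1 and Hspe1 lie head to head and share 285 bases of their promoter windows (chr1:55087898-55088182), so that they hold the same matches, of which there are 2, overlapping and on opposite strands.
Herpud1, ERSE-II, chr8:94386365-94386399, plus strand: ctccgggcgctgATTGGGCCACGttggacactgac
Herpud1, TGATGNAA, chr8:94386305-94386336, minus strand: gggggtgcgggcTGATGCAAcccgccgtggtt
Hspd1 and Hspe1, heat shock element, chr1:55088052-55088088, plus strand: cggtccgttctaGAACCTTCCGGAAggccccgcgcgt
Hspd1 and Hspe1, heat shock element, chr1:55088047-55088083, minus strand: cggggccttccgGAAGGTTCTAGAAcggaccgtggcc
Dnajb6, heat shock element, chr5:29735840-29735876, plus strand: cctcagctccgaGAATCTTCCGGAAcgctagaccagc

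The XBP1 element TGACGTGG was found in no member and in 0.714% of all genes, and the E-box CACGTG was found in 7 members and in 8.09% of all genes. A match is a description of these letters and not of binding.

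Of the 81 members, 40 were above background on all 16 arrays and 27 on none, and 2 (Dnajc14 and Hspa12a) were on a single array. Tests were run on the 52 members that 2 or more arrays showed above background, among 7395 genes in all. They comprised 22 cytosolic, 8 mitochondrial and 15 ER genes and 7 of other sites. The medians below include dim members such as Hsp90aa1, Hyou1 and Cct2, above background on only 2, 3 and 6 arrays. The inducible HSP70 gene Hspa1a, the small heat shock protein gene Hspb1, the J protein gene Dnaja1 and the ER lectin gene Canx were among those above background on no array. The limma model held the 8 groups together, and a call needed a p under 0.05 after Benjamini-Hochberg adjustment over all genes tested. The arrays measured RNA of whole cultures, so fewer cells with a transcript and less transcript per cell cannot be told apart.

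The change with stimulation alone was asked first. In control cells few of these genes moved at 2 h and 6 h, and by 12 h more of them had risen than fallen, mitochondrial and ER genes among them. At 2 h, 0 members were higher and 3 lower than at 0 h, against 4.42% and 5.86% of all genes tested. At 6 h, 3 were higher and 5 lower, against backgrounds of 12.1% and 15.4%. At 12 h, 13 of the 52 (25%) were higher and 3 lower (5.77%), against 12.7% and 15.1%. The 13 comprised 5 of 15 ER genes (33.3%), 4 of 8 mitochondrial genes (50%) and 4 of 22 cytosolic genes (18.2%). The count at 12 h was lower when any 1 of the 4 arrays was left out, and so was the count over all genes tested. For the members it was lowest without replicate 2 of the control cells at 12 h.

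Hsp105 (the older symbol of Hsph1, the HSP110 nucleotide exchange factor) first fell and then rose. Its level was 10.32 and 10.38 at 0 h, 9.71 and 9.80 at 2 h, 10.15 and 10.22 at 6 h, then 10.99 and 11.05 at 12 h, with no overlap between 0 h and either 2 h or 12 h. The change was -0.59 ± 0.11 (SE) at 2 h (limma adjusted p = 0.00435) and 0.67 ± 0.11 at 12 h (limma adjusted p = 0.000634). Xbp1, the transcription factor of the UPR, also fell at 2 h, from 11.32 and 11.33 to 10.67 and 10.57 (-0.71 ± 0.13, limma adjusted p = 0.00501), and was 11.37 and 11.09 at 12 h, within reach of its starting level. All of these calls held in every refit tried, which here and below means each alternative in which the gene was tested, since genes not detected on every array were left out of 1 of them.

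The ER genes Herpud1 and Dnajb9 rose in control cells. Herpud1, whose product helps to degrade misfolded ER proteins, went from 10.43 and 10.57 at 0 h to 11.48 and 11.29 at 6 h (0.89 ± 0.12, limma adjusted p = 0.000199) and 11.03 and 11.19 at 12 h (0.61 ± 0.12, limma adjusted p = 0.00255). Dnajb9, a J protein that works with BiP, went from 6.42 and 6.70 to 7.65 and 7.54 at 12 h, a 2.05-fold rise (limma adjusted p = 0.00377). Mortalin (Hspa9) rose from 11.66 and 11.62 to 12.09 and 12.09 at 12 h (0.45 ± 0.10, limma adjusted p = 0.00517). In each of these the 12 h arrays lay above both 0 h arrays, and the calls at 12 h held in every refit.

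Dnajc6 (auxilin, a J protein that recruits HSC70 to uncoat clathrin vesicles) had the change largest in size among the members in both arms at 12 h. Its level in control cells was 9.93 and 9.84 at 0 h, 10.25 and 10.23 at 2 h, 8.13 and 7.89 at 6 h, then 5.69 and 5.94 at 12 h. Both 12 h arrays lay 16.8-fold lower on average than those at 0 h (-4.07 ± 0.14, limma adjusted p = 1.39e-09). In Akti1/2-treated cells it fell by 3.51 ± 0.14 on the log2 scale over the same time (limma adjusted p = 3.71e-09), to 6.16 and 5.93.

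The subunits of TRiC showed no such movement in control cells. None of the 8 subunits tested was called by limma at 2, 6 or 12 h, nor did any have an unadjusted p under 0.05, and their median change at 12 h was 0.18, beside -0.01 over all genes tested. The cytosolic genes as a whole had a median change of 0.21 at 12 h, with 4 called higher (18.2%) and 1 lower, beside 12.7% and 15.1% of all genes, and 1 or 2 called higher with any 1 array left out. The mitochondrial genes had a median of 0.31 and the ER genes of 0.40. Under the other settings these medians reached down to 0.10 for the cytosolic, 0.20 for the mitochondrial and 0.16 for the ER genes.

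In Akti1/2-treated cells more of the members moved from 2 h on, as did more genes overall. At 2 h, 14 members were higher and 9 lower than at 0 h, against 17.8% and 20.9% of all genes tested. The 14 include Hsp90aa1, which passed the filter only through these 2 arrays at 2 h, and without it 13 of 51 were higher. At 6 h, 11 were higher and 7 lower, against 15.4% and 17.9%. At 12 h, 12 were higher and 12 lower, each 23.1% of the members, against 21.1% and 23.4% of all genes. The shares of members that moved with Akti1/2 at 12 h were thus close to those of all genes.

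The effect of Akti1/2 itself was then compared at each time. Before stimulation none of the 52 members was called by limma, and 4 had an unadjusted p under 0.05, while 0.0406% and 0.0135% of all genes tested were called higher and lower. No member was called at 0 h under any of the other settings either. At 2 h, 8 members were higher and 4 lower in Akti1/2-treated cells, against 13.6% and 14.9% of all genes. At 6 h, 7 were higher and 11 lower, against 18.8% and 18.7%. At 12 h, 10 were higher (19.2%) and 17 lower (32.7%), against 24.2% and 24.8%.

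These counts held different genes in different compartments. ER members made up 5 of the 8 higher genes at 2 h, or 33.3% of the 15 ER genes, beside 13.6% of all genes. At 12 h they made up 5 of the 10 (33.3%, beside 24.2%). Cytosolic members made up 12 of the 17 lower genes at 12 h, or 54.5% of the 22 cytosolic genes, beside 24.8% of all genes. The ER count fell to 3 at 2 h without replicate 1 of either arm at 2 h, and to 3 at 12 h without Akti1/2 replicate 2 at 12 h. The median difference at 12 h was -0.53 for the 22 cytosolic genes, 0.09 for the 8 mitochondrial genes and 0.11 for the 15 ER genes, beside -0.02 over all genes tested. The cytosolic median lay between -0.61 and -0.28 under the other settings, lowest in size without background correction, and between -0.60 and -0.45 with any 1 array left out. The ER median was 0.03 without Akti1/2 replicate 2 at 12 h and 0.03 to 0.20 under the other settings, and the mitochondrial median was 0.04 to 0.09 under the latter.

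**Figure D1:**
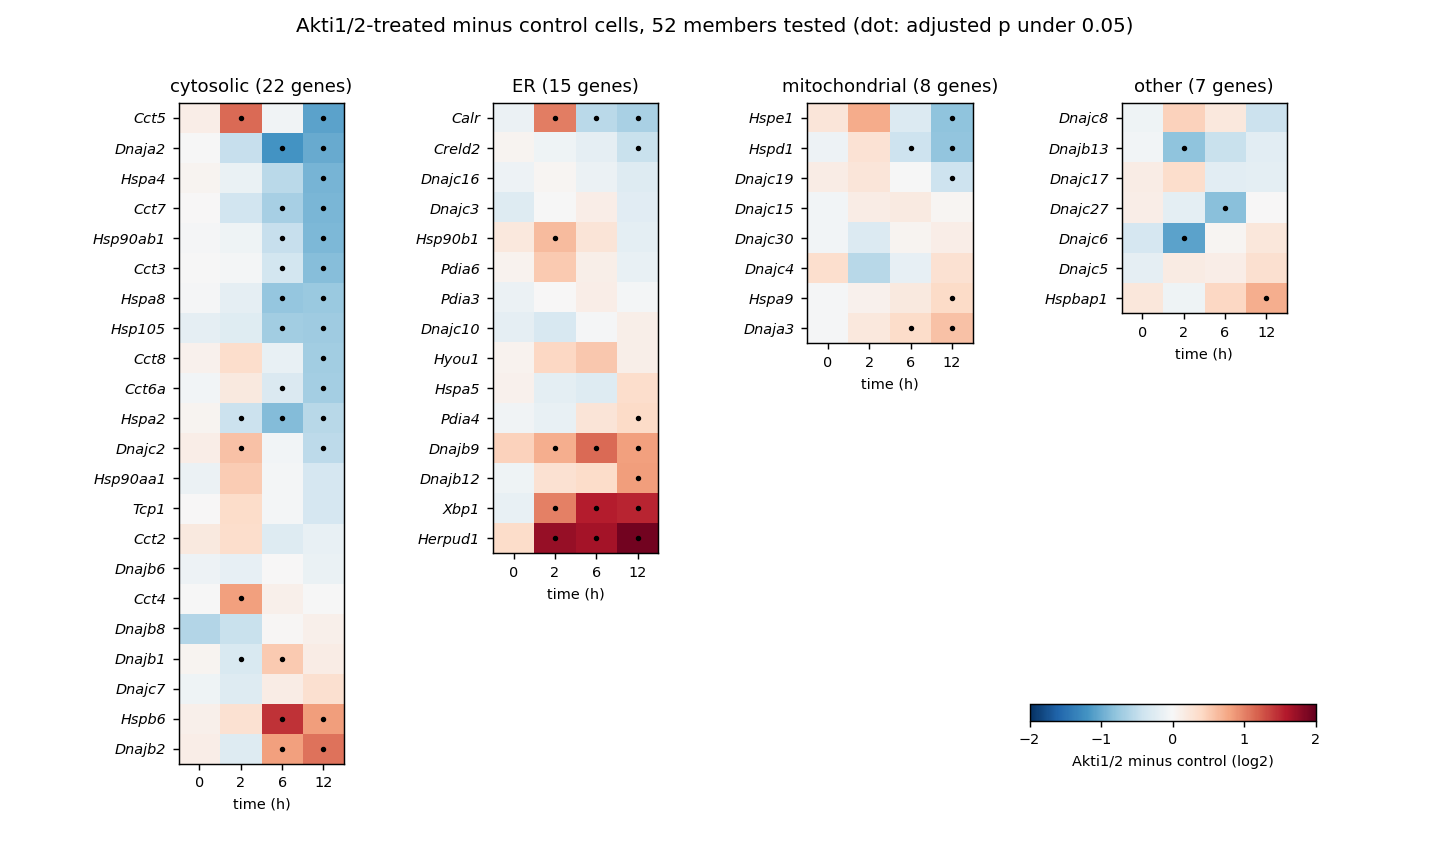
Difference in log2 intensity between Akti1/2-treated and control cells (colour, from -2 in blue to 2 in red) for the 52 members tested, 1 row a gene, at 0, 2, 6 and 12 h of stimulation, in 4 compartments and ordered by the value at 12 h. Black dots mark limma calls; 12 of 22 cytosolic genes carried a dot in blue at 12 h, and Herpud1 and Xbp1 carried dots in red at 2, 6 and 12 h.

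The UPR genes Xbp1 and Herpud1 gave the largest differences of all members at 6 and 12 h. Xbp1 was 11.18 and 11.16 in Akti1/2-treated cells at 0 h, next to 11.32 and 11.33 in control cells. It then reached 11.66 and 11.58 at 2 h, 12.87 and 12.51 at 6 h, then 12.79 and 12.72 at 12 h, while control cells stayed between 10.57 and 11.37. From 2 h on every Akti1/2 array lay above every control array of the same time. The difference was 1.01 ± 0.13 at 2 h (2.01-fold, limma adjusted p = 0.000249), 1.57 ± 0.13 at 6 h (2.98-fold, limma adjusted p = 3.61e-06) and 1.53 ± 0.13 at 12 h (2.88-fold, limma adjusted p = 1.94e-06).

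Herpud1, which holds the ERSE-II shown above, was also higher with Akti1/2 at each time of stimulation. Its level in Akti1/2-treated cells was 10.95 and 10.78 at 0 h, 12.59 and 12.63 at 2 h, 12.92 and 13.18 at 6 h, then 13.05 and 13.03 at 12 h, against 10.43 to 11.48 over all control arrays. Every stimulated Akti1/2 array lay above every control array. The difference was 1.74 ± 0.12 at 2 h (3.34-fold, limma adjusted p = 3.08e-06), 1.66 ± 0.12 at 6 h (3.16-fold) and 1.93 ± 0.12 at 12 h (3.81-fold, limma adjusted p = 1.98e-07). Within chip 1 and chip 2 taken alone the values at 12 h were 1.86 and 1.99 for Herpud1 and 1.70 and 1.35 for Xbp1.

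The interaction compares the changes from 0 h themselves, as the change with Akti1/2 minus the change without. For Xbp1 it was 1.16 ± 0.18 at 2 h, 1.73 ± 0.18 at 6 h and 1.68 ± 0.18 at 12 h (limma adjusted p = 0.0047, 0.000112 and 4.86e-05). For Herpud1 it was 1.37 ± 0.17, 1.29 ± 0.17 and 1.56 ± 0.17 at the same times (limma adjusted p = 0.00124, 0.00045 and 4.84e-05). Both genes were called at all 3 times in every refit. In control cells Xbp1 changed by -0.71 at 2 h, -0.21 at 6 h and -0.10 at 12 h, of which only the first was called, so its interaction does not set 1 rise against another. The array carried 1 entry for Xbp1, which does not separate its spliced from its unspliced form.

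Dnajb9 was higher with Akti1/2 at all 3 times of stimulation, but its start was higher too. Its level was 7.09 and 6.95 with Akti1/2 and 6.42 and 6.70 without at 0 h, and 8.04 and 8.60 against 7.37 and 6.99 at 6 h. The difference at 6 h was 1.14 ± 0.22 (2.2-fold, limma adjusted p = 0.00149), and this call held in every refit. The interaction was not called at any time (0.67 ± 0.31 at 6 h, limma adjusted p = 0.144). At 2 h the difference of 0.72 was lost without replicate 1 of either arm at 2 h (limma adjusted p of 0.176 to 0.188), and at 12 h that of 0.82 was lost without Akti1/2 replicate 2 at 12 h (limma adjusted p = 0.0599).

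Creld2, an ER stress gene with disulfide isomerase activity, differed the other way, with a rise in control cells. At 0 h it was 10.77 and 10.85 without and 10.91 and 10.82 with Akti1/2. It was 11.17 and 11.27 without and 10.76 and 10.78 with Akti1/2 at 12 h, with no overlap, a difference of -0.45 ± 0.10 (limma adjusted p = 0.00241) that held in every refit. Dnajb12, a J protein of the ER membrane, was 6.91 and 6.48 without and 7.48 and 7.57 with Akti1/2 at 12 h. Its difference was 0.83 ± 0.15 (limma adjusted p = 0.000771) and its interaction 0.92 ± 0.22 (limma adjusted p = 0.0071), both held in every refit.

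**Figure D2:**
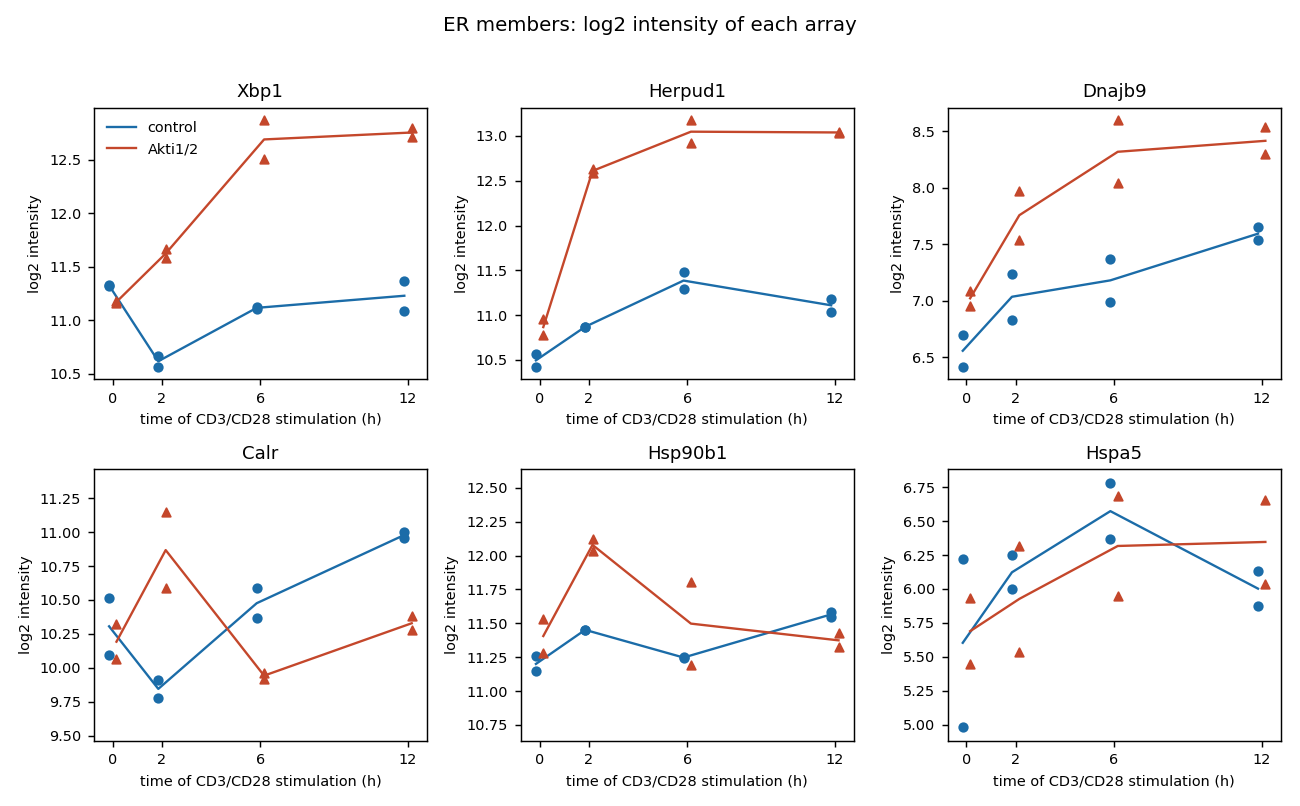
Log2 intensity of 6 ER members on each array against hours of CD3/CD28 stimulation, with control arrays as blue circles, Akti1/2 arrays as red triangles and lines through the group means; axes differ in range between panels. Xbp1 and Herpud1 separated from 2 h on, Calr crossed over between 2 h and 6 h, and the 2 arms of Hspa5 overlapped.

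Several ER folding genes were not called between the arms, and some of these were measured poorly. No test compared them with Xbp1 and Herpud1. BiP (Hspa5) was called in none of the 13 comparisons. It was above background on 14 of the 16 arrays and ranged from 4.98 to 6.78, and its replicates lay far apart, at 4.98 and 6.22 in control cells at 0 h. The difference between Akti1/2-treated and control cells at 12 h was 0.34 ± 0.39 (limma adjusted p = 0.503). Hyou1 (GRP170) was above background on 3 arrays, 1 each of Akti1/2-treated cells at 2, 6 and 12 h. It thus entered the tests only through the Akti1/2 arm. Pdia6 was above background on 15 arrays, and neither gene was called between the arms.

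Calreticulin (Calr), a lectin chaperone, crossed over. At 0 h it was 10.52 and 10.09 without and 10.06 and 10.32 with Akti1/2. At 2 h it was 9.91 and 9.78 without and 10.59 and 11.15 with Akti1/2, a difference of 1.02 ± 0.18 (2.03-fold, limma adjusted p = 0.00186) that held in every refit. At 12 h the order had turned, with 11.004 and 10.95 without and 10.28 and 10.38 with Akti1/2, a difference of -0.65 ± 0.18 (limma adjusted p = 0.0105). The later call was lost without replicate 1 of control cells or of Akti1/2-treated cells at 12 h (limma adjusted p of 0.0545 to 0.0633). GRP94 (Hsp90b1) was likewise higher with Akti1/2 at 2 h, at 12.12 and 12.03 against 11.45 and 11.45 (0.63 ± 0.16, limma adjusted p = 0.0141), and this call was lost without any 1 of replicate 1 or 2 of control cells or replicate 1 of Akti1/2-treated cells at 2 h (limma adjusted p of 0.0568 to 0.0648). At 12 h GRP94 differed by -0.19 ± 0.16 and was not called.

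Set beside the promoters, members with an ER stress response element were called in both directions. Of the 6 that were tested, Calr and Hsp90b1 were higher with Akti1/2 at 2 h, beside 13.6% of all genes. Calr and Creld2 were lower at 12 h, beside 24.8% of all genes. These 6 genes were not tested as a set. Calr was also called lower at 6 h (-0.53 ± 0.18, limma adjusted p = 0.036), but not with any 1 of the 4 arrays left out (limma adjusted p of 0.0524 to 0.194). Hspa5, Pdia6 and Dnajc3 were not called in any of these comparisons. The disulfide isomerase Pdia3 differed by -0.04 ± 0.10 at 12 h and was not called at any time, and Pdia4 was higher by 0.38 ± 0.13 at 12 h (limma adjusted p = 0.0288), a call lost without either control replicate or without Akti1/2 replicate 2 at 12 h (limma adjusted p of 0.0763 to 0.226).

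Most of the cytosolic HSP70, HSP90 and HSP110 genes that were tested were called lower with Akti1/2 late in stimulation, while the inducible Hspa1a was among those not tested. Of the 6 tested, 4 were called lower at 6 h and 5 at 12 h, beside 18.7% and 24.8% of all genes. None was called higher, and the medians were -0.62 and -0.73. The 6 and these medians include Hsp90aa1, which was above background on no array at 6 or 12 h. At 12 h, 4 or 5 were called with any 1 array left out. The constitutive HSP90 gene Hsp90ab1 was 12.95 and 12.83 without and 11.88 and 12.12 with Akti1/2 at 12 h, where the arms did not overlap. This was a difference of -0.89 ± 0.11 (1.85-fold lower, limma adjusted p = 3.86e-05), with -0.95 on chip 1 and -0.83 on chip 2.

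The constitutive HSP70 gene Hspa8 (HSC70) was 14.32 and 14.31 without and 13.49 and 13.64 with Akti1/2 at 12 h. It differed by -0.75 ± 0.16 (1.68-fold lower, limma adjusted p = 0.00184), after -0.77 ± 0.16 at 6 h (limma adjusted p = 0.00243). Hsp105 at 12 h was 10.99 and 11.05 against 10.26 and 10.34, a difference of -0.72 ± 0.11 (limma adjusted p = 0.000144). With Akti1/2 it had been 10.15 and 10.19 at 0 h, so the arms lay closer at the start than at 12 h.

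Hspa2, an HSP70 known best from the testis, was lower with Akti1/2 at 6 h, at 6.29 and 6.40 against 7.35 and 7.09 (-0.87 ± 0.11, limma adjusted p = 8.63e-05), and at 12 h, at 6.49 and 6.56 against 7.04 and 7.10 (-0.55 ± 0.11, limma adjusted p = 0.00142). All of these calls of Hsp90ab1, Hspa8, Hsp105 and Hspa2 held in every refit. Hspa4, a second HSP110-type exchange factor, was 6.97 and 7.51 against 6.37 and 6.26 at 12 h (-0.93 ± 0.31, limma adjusted p = 0.0259). Its call was lost without control replicate 2 or either Akti1/2 replicate at 12 h (limma adjusted p of 0.0738 to 0.187). Hsp90aa1, the inducible HSP90 gene, was above background on 2 arrays only, both of Akti1/2-treated cells at 2 h (5.54 and 5.55, after 4.84 and 4.63 at 0 h), and was not called between the arms. It entered the tests only through those arrays, and without either of them it was not tested.

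**Figure D3:**
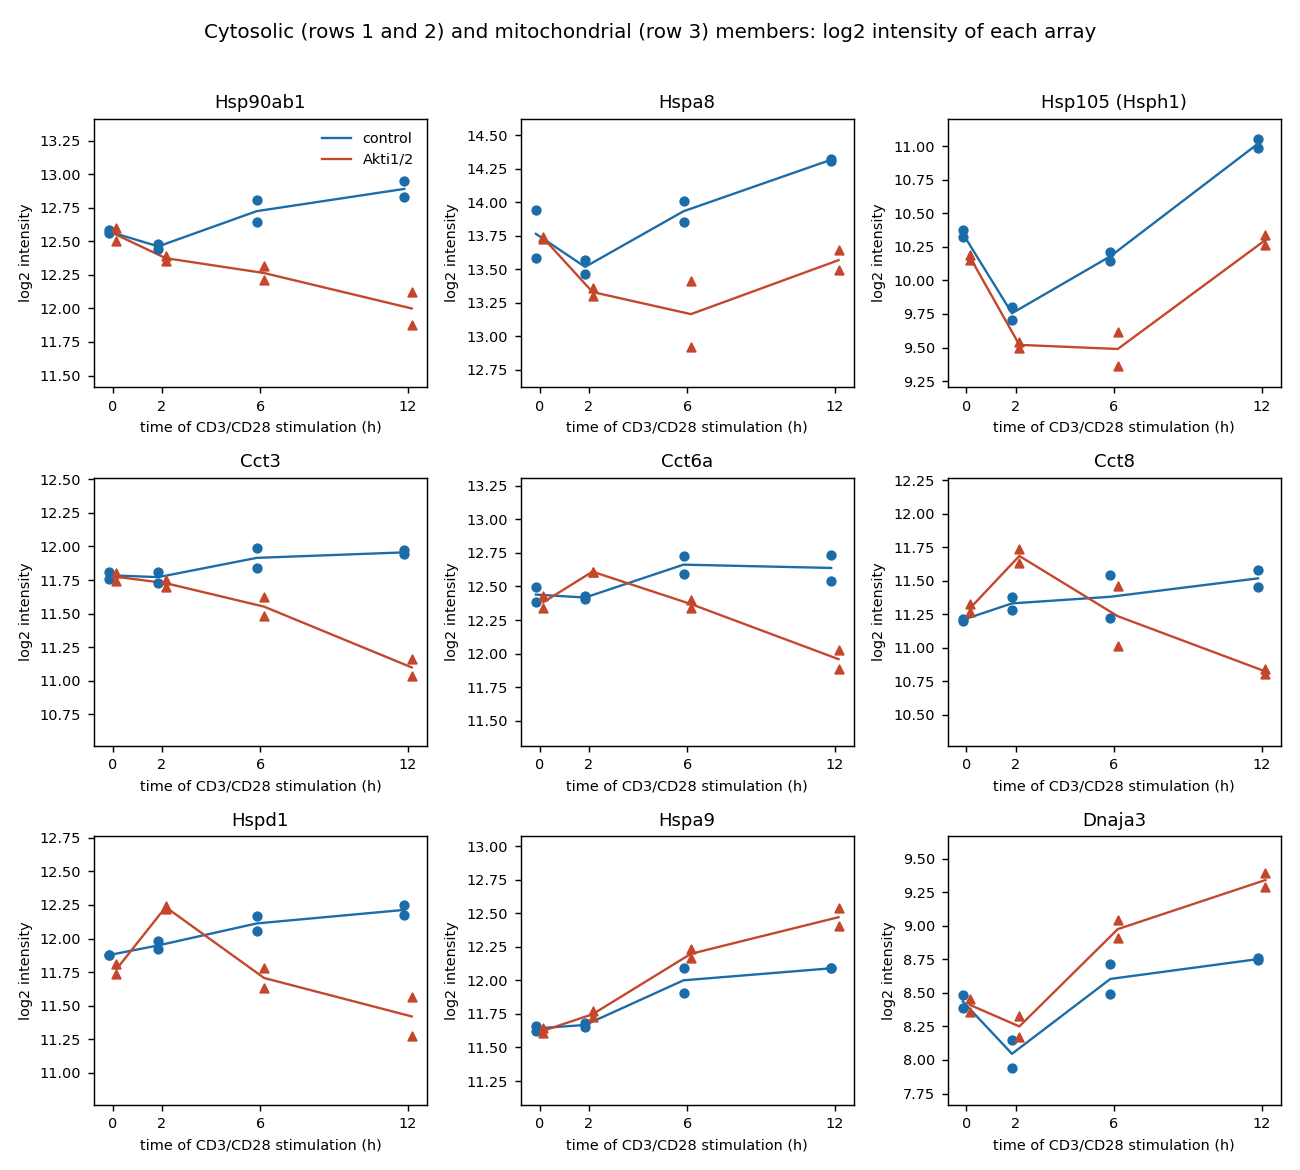
Log2 intensity of 6 cytosolic members (upper 2 rows) and 3 mitochondrial members (lower row) on each array against hours of CD3/CD28 stimulation, with control arrays as blue circles, Akti1/2 arrays as red triangles and lines through the group means. At 12 h all cytosolic panels and Hspd1 had both Akti1/2 arrays below both control arrays, while Hspa9 and Dnaja3 had them above.

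TRiC is built from 8 kinds of subunit, and all 8 were tested. At 12 h, 5 were called lower with Akti1/2 and none higher, beside 24.8% and 24.2% of all genes, and the median difference was -0.69. Cct2 was above background on no array at 12 h, and Cct4 differed by -0.02. With any 1 array left out 4 or 5 were called, and the median was -0.37 without background correction. Cct3 was 11.94 and 11.97 without and 11.04 and 11.16 with Akti1/2 at 12 h, with no overlap and a difference of -0.86 ± 0.10 (1.81-fold lower, limma adjusted p = 2.61e-05).

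Cct6a was 12.54 and 12.74 against 12.03 and 11.89, a difference of -0.68 ± 0.11 (1.6-fold lower, limma adjusted p = 0.000226). Cct8 was 11.58 and 11.45 against 10.80 and 10.84, a difference of -0.69 ± 0.15 (1.62-fold lower, limma adjusted p = 0.00188). In both subunits the arms did not overlap at 12 h, and the calls held in every refit. Cct7 was above background on both control arrays (6.13 and 6.21) and on neither Akti1/2 array (5.28 and 5.24), so its level was at least 1.49-fold higher in control cells (limma adjusted p = 0.00139), a bound set by the dimmest signal above background.

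At the earlier times the subunits were called in different directions. At 6 h, 3 of the 8 (Cct3, Cct6a and Cct7) were called lower with Akti1/2 and none higher, beside 18.7% and 18.8% of all genes. The median difference over all 8 was -0.20, and it lay between -0.35 and 0.01 with any 1 array left out. Each of these 3 calls was lost under at least 1 other setting. At 2 h Cct4 was 12.94 and 13.21 with Akti1/2 and 12.27 and 12.23 without, a rise of 0.82 ± 0.17 (1.77-fold, limma adjusted p = 0.00507) that held in every refit, and at 12 h it differed by -0.02 ± 0.17. Cct5 was 7.85 and 7.78 against 6.26 and 7.10 at 2 h (1.13 ± 0.35, limma adjusted p = 0.0318) and 5.80 and 6.01 against 7.31 and 6.64 at 12 h (-1.07 ± 0.35, limma adjusted p = 0.0246). Both calls of Cct5 were lost in 3 of the 4 refits with an array of that time left out. At 2 h the remaining one was that without control replicate 2, and at 12 h also that without control replicate 2. Tcp1 and Cct2 were not called between the arms at any time.

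Of the 23 J proteins tested, which select clients for HSP70, 4 were higher (17.4%) and 3 lower (13.04%) with Akti1/2 at 12 h, both under the 24.2% and 24.8% of all genes. Their median was 0.10, and 1 was called lower without Akti1/2 replicate 1 or control replicate 2 at 12 h. Dnaja2, a general partner of HSC70, was 6.33 and 6.14 without and 4.86 and 5.22 with Akti1/2 at 6 h, and 6.04 and 6.00 against 4.78 and 5.23 at 12 h. The Akti1/2 arrays at these times were not above background while all control arrays were, so the control level was at least 1.57-fold higher at 6 h (limma adjusted p = 0.000301) and at least 1.34-fold higher at 12 h (limma adjusted p = 0.000593). Dnajb2 was 7.53 and 7.33 without and 8.53 and 8.51 with Akti1/2 at 12 h, a rise of 1.09 ± 0.22 (2.13-fold, limma adjusted p = 0.00147). These calls of Dnaja2 and Dnajb2 at 12 h held in every refit that tested them, which leaves out the one on genes detected on every array.

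Dnajb1, the classical heat-inducible HSP40, was 11.18 and 11.10 without and 11.22 and 11.18 with Akti1/2 at 0 h. At 6 h it was 10.57 and 10.78 without and 11.25 and 11.15 with Akti1/2. Control cells thus lay below their start, while Akti1/2-treated cells lay near theirs. Dnajb1 differed between the arms by 0.52 ± 0.10 at 6 h (limma adjusted p = 0.00163). This call was lost only when the fit held the 2 groups compared alone (limma adjusted p = 0.0555). At 2 h it was called lower, at 10.57 and 10.54 with and 10.82 and 10.90 without Akti1/2 (-0.30 ± 0.10, limma adjusted p = 0.0428), but not with any 1 of these 4 arrays left out (limma adjusted p of 0.0938 to 0.172). At 12 h it differed by 0.14 ± 0.10 and was not called. Dnajc2, a J protein that sits on ribosomes, was 10.22 and 10.32 against 9.68 and 9.68 at 2 h (0.59 ± 0.15, limma adjusted p = 0.0117) and 9.20 and 9.34 against 9.65 and 9.92 at 12 h (-0.52 ± 0.15, limma adjusted p = 0.0117). The first call was lost without either control replicate or Akti1/2 replicate 2 at 2 h (limma adjusted p of 0.0508 to 0.0723), and the second without control replicate 2 or Akti1/2 replicate 1 at 12 h (limma adjusted p of 0.0781 to 0.11).

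Dnajc6 differed between the arms at 2 h, at 9.24 and 9.11 with Akti1/2 and 10.25 and 10.23 without (-1.06 ± 0.14, 2.09-fold lower, limma adjusted p = 0.000234), a call that held in every refit. At 6 h it was 8.18 and 7.91 against 8.13 and 7.89, where the arms overlapped. The small heat shock protein gene Hspb6 (HSP20) rose with Akti1/2. It was 7.20 and 7.13 without and 8.64 and 8.58 with Akti1/2 at 6 h (1.44 ± 0.12, 2.71-fold, limma adjusted p = 3.2e-06), and 7.43 and 7.58 against 8.38 and 8.31 at 12 h (0.84 ± 0.12, limma adjusted p = 9.08e-05). Hspbap1, a protein that binds HSP27 and is not itself a chaperone, was 7.45 and 7.80 against 8.39 and 8.32 at 12 h (0.73 ± 0.17, limma adjusted p = 0.00338). The calls of Hspb6 and Hspbap1 given here held in every refit.

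**Figure D4:**
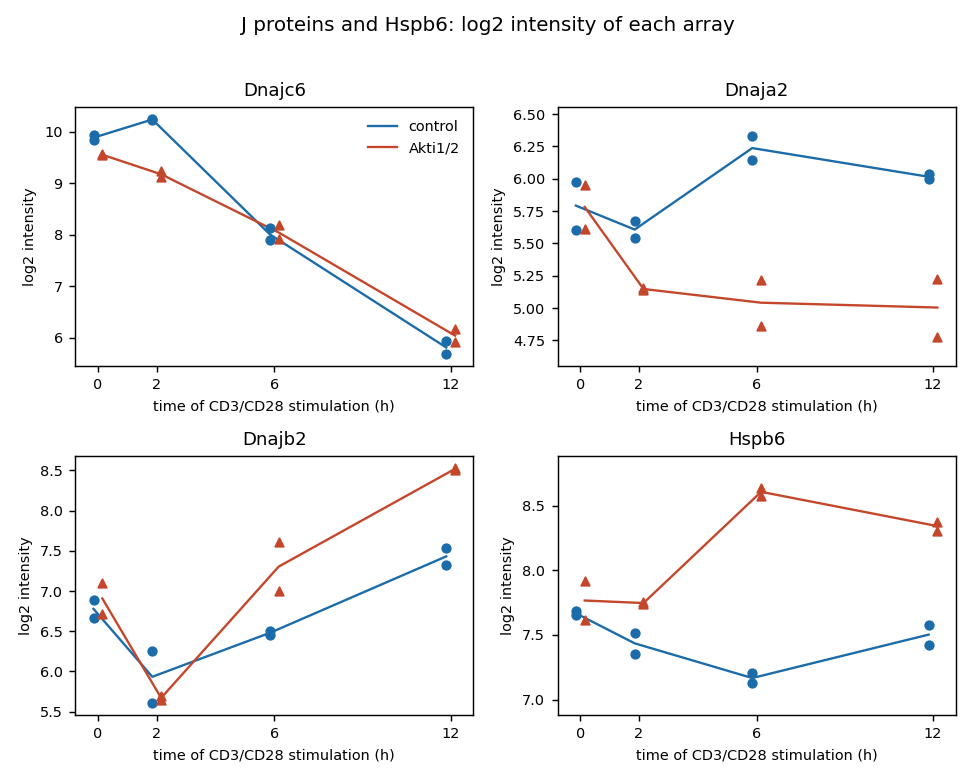
Log2 intensity of 3 J proteins and Hspb6 on each array against hours of CD3/CD28 stimulation, with control arrays as blue circles, Akti1/2 arrays as red triangles and lines through the group means; axes differ in range between panels. Dnajc6 fell in both arms, Dnaja2 lay lower and Dnajb2 and Hspb6 higher with Akti1/2 at 6 and 12 h.

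Of the 8 mitochondrial genes tested, 2 were higher and 3 lower with Akti1/2 at 12 h, beside 24.2% and 24.8% of all genes. With any 1 array of that time left out, 1 or 2 were called lower. HSP60 (Hspd1) was 12.18 and 12.25 without and 11.27 and 11.57 with Akti1/2, a difference of -0.79 ± 0.11 (1.73-fold lower, limma adjusted p = 0.000108) that held in every refit. HSP10 (Hspe1), its partner across the shared promoter shown above, was 10.11 and 10.13 against 9.21 and 9.42 (-0.81 ± 0.29, limma adjusted p = 0.0348). The arms did not overlap in either gene, but the call of Hspe1 was lost with any 1 of the 4 arrays left out (limma adjusted p of 0.0686 to 0.155).

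Mortalin (Hspa9) and the J protein that serves it, Dnaja3 (Tid1), went up at the same time. Dnaja3 was 8.76 and 8.74 without and 9.29 and 9.39 with Akti1/2 at 12 h, a difference of 0.59 ± 0.12 (1.5-fold, limma adjusted p = 0.00135) that held in every refit. Hspa9 was 12.09 and 12.09 against 12.54 and 12.40, a difference of 0.38 ± 0.10 (limma adjusted p = 0.00699). This call was lost without Akti1/2 replicate 1 at 12 h (limma adjusted p = 0.0683) and when the arrays were brought to 1 common mean (limma adjusted p = 0.0768).

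The interaction counted members whose change from 0 h differed between the arms. At 2 h, 3 were higher with Akti1/2 and 1 lower, against 4.25% and 4.16% of all genes tested. At 6 h, 4 were higher and 4 lower, against 10.3% and 9.24%. At 12 h, 8 were higher (15.4%) and 13 lower (25%), against 16.3% and 16.2%. Of the 13 lower at 12 h, 10 were cytosolic, or 45.5% of the 22 cytosolic genes, beside 16.2% of all genes. Fewer cytosolic genes were called lower without replicate 2 of the control cells at 12 h.

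Among the cytosolic genes the interaction at 12 h was called in every refit for Hsp90ab1 (-0.87 ± 0.16, limma adjusted p = 0.00132), Cct3 (-0.85 ± 0.14, limma adjusted p = 0.000891), Cct6a (-0.62 ± 0.15, limma adjusted p = 0.00776) and Cct8 (-0.78 ± 0.21, limma adjusted p = 0.0124). Hspd1 (-0.69 ± 0.16, limma adjusted p = 0.0061) did so too. Hspb6 had an interaction above 0 at 6 h (1.34 ± 0.17, limma adjusted p = 0.000299) and at 12 h (0.74 ± 0.17, limma adjusted p = 0.00485), again in every refit. Hspa2 was called below 0 in every refit at 6 h (-0.92 ± 0.16, limma adjusted p = 0.00193).

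The median of each compartment was also taken array by array. Relative to the mean of the control cells at 0 h, the median cytosolic gene stood at 0.14 and 0.22 in control cells at 12 h and at -0.34 and -0.20 in Akti1/2-treated cells. The median mitochondrial gene stood at 0.31 and 0.32 against 0.28 and 0.41, and the median ER gene at 0.35 and 0.43 against 0.27 and 0.56. Thus the arms overlapped in the mitochondrial and ER medians and did not in the cytosolic one. These medians are over genes of 1 array and not over replicates, and they carry no test.

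**Figure D5:**
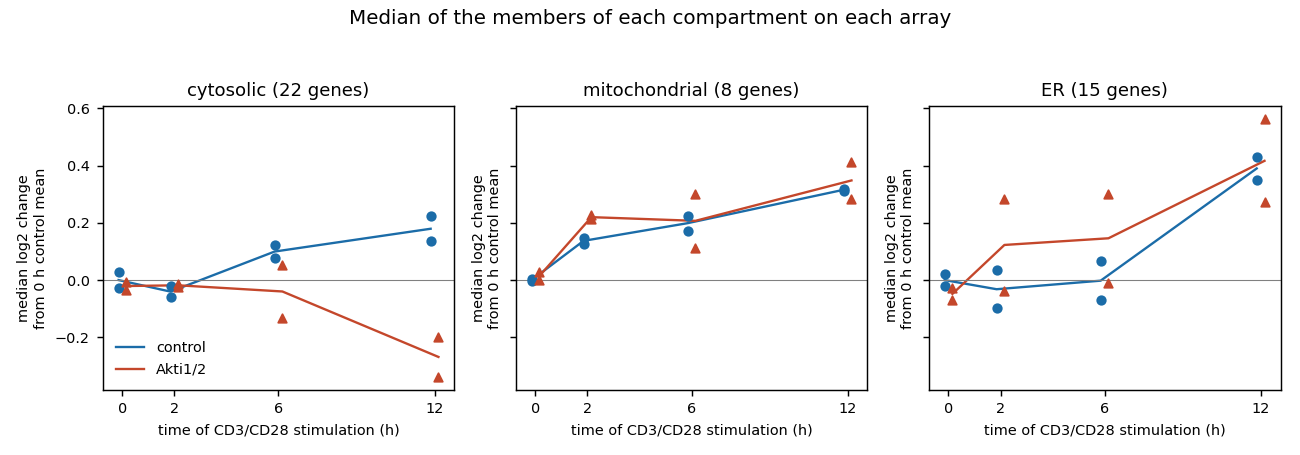
Median over the 22 cytosolic, 8 mitochondrial and 15 ER members of the log2 change from the mean of the 0 h control arrays, 1 point an array, against hours of CD3/CD28 stimulation, with control arrays as blue circles, Akti1/2 arrays as red triangles and lines through the means of both arrays. At 12 h the cytosolic medians were 0.14 and 0.22 without Akti1/2 but -0.34 and -0.20 with it, and the arms overlapped in the other 2 panels.

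Genes that work with these chaperones but lie outside the symbol rule were counted from 6 lists, to be read against the 24.2% and 24.8% of all genes called higher and lower at 12 h. Of 19 heat shock response partners tested, 1 was higher and 10 lower with Akti1/2 at 12 h, with a median difference of -0.39. They included the HSP90 co-chaperone genes Ahsa1 (-1.27, limma adjusted p = 1.6e-05), Stip1 (-0.85), Cdc37 (-1.16) and Ptges3 (-1.16), and the cyclophilin gene Ppid (-1.22, limma adjusted p = 1.9e-06). In control cells 4 of the 19 were higher at 12 h than at 0 h and none lower, beside 12.7% and 15.1% of all genes, Stip1, Ahsa1 and Ppid among them.

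Of 13 genes of ER-associated degradation, 6 were higher (46.2%) and 2 lower (15.4%) with Akti1/2 at 12 h, with the ubiquitin ligase gene Syvn1 at 0.86 (limma adjusted p = 0.00039) and its partner Sel1l at 0.49. At 2 h the median of this list was -0.27, with none called higher and 2 lower (15.4%, beside 14.9% of all genes). Of 18 translocon genes, 5 were higher (27.8%, near the share of all genes) and 1 lower, and the paralogous pore subunits moved in opposite directions, with Sec61a1 at 0.96 (limma adjusted p = 5.4e-05) and Sec61a2 at -1.06 (limma adjusted p = 1.6e-05). Of 12 genes listed under UPR sensors and ER folding partners, 2 were higher (16.7%) and 1 lower (Tmem66 at 1.91, Selk at 0.88 and Fkbp11 at -1.71).

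The remaining lists were small. Of 9 mitochondrial chaperones and proteases, none was higher and 3 were lower (Htra2, Afg3l2 and Spg7), and all 9 lay below 0 with a median of -0.38. Of 6 prefoldin and chaperonin partners, 2 were higher and 2 lower, with Pfdn2 at -0.86 and Pfdn5 at 0.45. These lists were not tested as sets.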

How the data were processed

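RNA of 16 samples of D10 cells was measured on Illumina mouse bead arrays. The authors deposited 1 table of average bead intensity per gene and array on a linear scale, neither background-corrected nor normalized. The file headers name GSGX 1.5.4 as the software. The table came with a detection p for each value and 798 negative controls. A second control table covers 15 of the arrays and was not used, since it holds the same negative control values (largest difference 0).

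The deposited intensity was corrected on the negative controls (normexp, offset 16), quantile-normalized and log2-transformed by neqc of limma 3.58.1 (R 4.3.3). Tested were the genes that 2 or more arrays detected at p under 0.01 (7395 of 18138, of which 5544 were detected on all arrays). A single fit of the 8 groups gave 8 residual and 4.26 prior degrees of freedom and 13 comparisons (control course, Akti1/2 course, the arms at each time, and the interactions with 0 h), with Benjamini-Hochberg adjustment. Errors are SE of log2 differences. The statistic that the study's methods name was not used. The calculation was tested on simulated data. Only 2 arrays a group limit the precision.

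The members and lists were chosen with earlier results of these data known. Named were a set of core members and, in each comparison, up to 3 further called members with the largest rise and 3 with the largest fall that moved the same way on both chips. Hspa1b, Dnajb11, Sdf2l1 and Manf were not analysed here. Where all arrays of a group were not above background, a fold is a bound, taken as the brighter group's mean over the higher of the dim value and the lowest signal above background on each array.

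Replicate numbers were checked for pairing. Deviations of same-numbered arrays from their group means had a median correlation of 0.017 (range -0.296 to 0.264, above 0.1 in 7 of 28 pairs of groups), so the numbers were not taken to pair the arrays. At 12 h the numbers of the control arrays lie on the opposite chips. Tried as alternatives were no background correction before quantile normalization, a common mean in place of quantiles, all genes unfiltered, only those detected on every array, a replicate block, a chip block, only the groups compared, and leaving out each array in turn.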

Additional observations from a re-analysis of the deposited data

Results flagged for a closer look

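For 33 interactions the change from 0 h differed between the arms in a test of that difference (limma, adjusted p under 0.05). Values are log2 differences, Akti1/2 minus control.

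The interactions of Herpud1 and Xbp1 held in every refit that tested them, as is meant throughout. Herpud1 had 1.37 at 2 h, 1.29 at 6 h and 1.56 at 12 h, and Xbp1 had 1.16, 1.73 and 1.68. The ER J protein gene Dnajb12 had 0.92 at 12 h, also in every refit. Calr at 2 h (1.14) was lost without any 1 of 4 arrays (replicate 1 of both 0 h groups and replicate 2 of both 2 h groups) and with only the groups compared in the fit. Creld2 at 12 h (-0.51) was lost without replicate 1 of either 0 h group or control replicate 2 at 12 h.

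Of the cytosolic genes, Hsp90ab1 (-0.87), Cct3 (-0.85), Cct6a (-0.62) and Cct8 (-0.78) at 12 h, Hspa2 at 6 h (-0.92) and Hspb6 at 6 and 12 h (1.34 and 0.74) held in every refit. Hspa2 at 12 h (-0.59) was lost without control replicate 1 at 0 h and with the arrays at 1 common mean. Dnaja2 at 6 and 12 h and Cct7 at 12 h were not above background on any Akti1/2 array of those times, so their fitted values (-1.19 and -1.001 for Dnaja2, -0.92 for Cct7) are not measured sizes. The call of Cct7 was lost without control replicate 2 at 0 or 12 h or Akti1/2 replicate 1 at 0 h, and without background correction. Hsp105 at 12 h (-0.54) was lost without control replicate 1 at 0 h, control replicate 2 at 12 h or Akti1/2 replicate 1 at 12 h.

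Other calls rested on most of their 8 arrays, and each of these was also lost under at least 1 other setting. Hsp105 at 6 h (-0.51) was lost without any of 7 of them, and Hspa8 at 6 and 12 h (-0.74 and -0.72), Dnajb1 at 6 h (0.46), Dnajb2 at 12 h (0.96) and Dnajc2 at 12 h (-0.64) without any of 6. Dnajc6 was lost without any of 7 at 2 h (-0.73) and any of 6 at 12 h (0.56).

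Of the mitochondrial genes, Hspd1 at 12 h (-0.69) held in every refit, Dnaja3 (0.62) was lost without replicate 1 of either 0 h group, and Hspa9 (0.40) was lost without any of 7 arrays and under 5 other settings. Dnajc19, of the mitochondrial import motor, had -0.56 at 12 h, with 9.71 and 9.63 with and 9.91 and 10.25 without Akti1/2. It falls outside the rule for named genes and was chosen after its values were seen.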

How the results depend on the processing

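Of 175 called results over 46 named members, 89 were called under every alternative and 86 were lost under at least 1, and no called difference turned its sign. Counts of members called moved by over 1.5 times in the following cases, and the cause was not tested. In control cells at 2 h the count of 3 became 6 without background correction and 5 with arrays scaled to the same mean, and at 12 h the count of 16 became 10 with no filter. With only the groups compared in the fit, Akti1/2-treated cells at 6 h against 0 h went from 18 to 11, the arms at 2 h from 12 to 7 and at 6 h from 18 to 10, and the interaction at 6 h from 8 to 5.

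With 1 array left out, where the spread of the lone array is taken from the remaining groups, counts were 2 to 3, 4 to 7 and 5 to 8 for control cells at 2, 6 and 12 h, 12 to 17, 11 to 15 and 18 to 20 for Akti1/2-treated cells, 8 to 9, 12 to 17 and 20 to 23 between the arms, and 2 to 4, 5 to 9 and 12 to 19 for the interactions. In control cells at 6 h the count of 8 was 4 and 5 without replicate 1 or 2 at 0 h and 5 without replicate 1 at 6 h, and at 12 h it was 7 without either 0 h replicate, 8 without replicate 1 and 5 without replicate 2 at 12 h. In Akti1/2-treated cells at 2 h the count of 23 was 14 and 13 without replicate 1 or 2 at 0 h and 12 without replicate 2 at 2 h, and it was 11 at 6 h without replicate 1 at 0 h. The interaction count fell to 2 at 2 h without replicate 1 of either 0 h group or Akti1/2 replicate 2 at 2 h, to 5 at 6 h without control replicate 2 at 0 h, control replicate 1 at 6 h or Akti1/2 replicate 1 at 0 h, and at 12 h to 12 without replicate 1 of either 0 h group and 13 without control replicate 2 at 12 h.

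Scaling to the same mean moved the median of all genes for the interaction at 6 h from -0.01 to 0.12, and the higher share of all calls from 43.0% to 25.9% and from 44.0% to 30.6% for control cells at 2 and 6 h, from 50.1% to 60.8% between the arms at 6 h, and from 50.5% to 64.7%, 52.7% to 71.9% and 50.2% to 60.6% for the interactions at 2, 6 and 12 h. With the replicate block the counts were 3, 8 and 14 in control cells, 23, 17 and 24 with Akti1/2, 0, 11, 17 and 27 between the arms and 5, 7 and 20 for the interactions. With the chip block they were 3, 8 and 13, then 23, 17 and 24, then 0, 12, 17 and 27, and 5, 10 and 20. Leaving out 1 array also lowered the count of all genes called in most comparisons.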
